A study of Drosophila melanogaster with 24 samples.

Results

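The genes described here are grouped as ecdysone receptor and early response genes: *EcR*, *usp*, *Eip74EF*, *Eip75B*, *br*, *Hr39*, *Hr46*, *ftz-f1* and *Eip71CD*. They were found by their symbols in the gene column of the expression tables, where the 9 genes lie in 9 of 14542 loci. All were measured in S2 cells, an established *Drosophila* line of embryonic origin that resembles hemocytes. The cells received dsRNA against GFP, a sequence the fly does not have (GFP RNAi), against *Sin3A* (SIN3 KD), against *lid* (LID KD), or against *Sin3A* and *lid* together (SIN3 KD + LID KD). dsRNA was present for 4 days in each group. Every one of these 4 treatments was also combined with 8.3 mM paraquat for 24 h. The 8 groups held 3 biological replicates each, 24 samples in all, of wild type S2 cells, and no group received ecdysone according to the labels. *Sin3A* encodes SIN3, the scaffold of a histone deacetylase complex, and *lid* encodes dKDM5/LID, a histone demethylase bound to SIN3. Paraquat is a herbicide that generates superoxide and so causes oxidative stress.

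Ecdysone is the steroid hormone that times molting and metamorphosis in insects. It binds a heterodimer of the nuclear receptors EcR and Ultraspiracle (USP), which switches on a small set of early genes, several of which encode transcription factors that in turn act on later genes. Without hormone the receptor is held with corepressors, and in *Drosophila* the corepressor SMRTER links EcR to SIN3.

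The unit throughout is FPKM, fragments scaled by transcript length and by the number of mapped fragments. The deposited tables give 1 FPKM value a group, since the 3 replicates of a group were combined. Replicate error is therefore unknown. The study gives an approximate read depth, but not that of single samples. In place of replicate error, the 8 group values of each locus were fitted by limma on the log2(FPKM + 0.1) scale with 1 term for each factor (dsRNA against *Sin3A*, dsRNA against *lid*, paraquat). An effect is the mean log2 difference between the 4 groups with a factor and the 4 without it. Its standard error (SE) comes in part from how unequal that difference was among the groups, with 4 residual degrees of freedom. The eBayes step of limma draws this variance towards that of other loci of like level, which also adds degrees of freedom to the test. The p-value therefore speaks of evenness across groups, judged with variance shared among loci, and not of replicate spread. Adjustment for multiple tests (Benjamini-Hochberg) took in the 7748 loci with a mean of at least 1 FPKM. A gene is said to have risen or fallen when its adjusted p was under 0.05 and its effect over 1.4-fold.

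Across the groups the FPKM values summed to between 749891 and 814105, and between 7537 and 7764 loci had at least 1 FPKM. The *lid* transcript was at 35.8 to 43.0 FPKM in the 4 groups without *lid* dsRNA and at 14.9 to 17.0 FPKM in the 4 with it (effect -1.26 ± 0.041 SE, limma adjusted p = 0.000236). The *Sin3A* transcript was at 62.0 to 67.9 FPKM without and at 58.0 to 61.7 FPKM with *Sin3A* dsRNA (effect -0.12 ± 0.044 SE, adjusted p = 0.059), so the transcript values show little of the *Sin3A* knockdown. The study checked that knockdown by SIN3 protein, which these tables do not hold. Over all tested loci, 647 rose and 731 fell with *Sin3A* dsRNA, and 34 rose and 38 fell with *lid* dsRNA. With paraquat 305 rose and 258 fell, a split of 381 and 205 when the values of each group were centred on their median. Among loci with a mean of at least 5 FPKM the balance turned, with 568 that rose and 467 that fell for *Sin3A* dsRNA and 183 and 224 for paraquat. Median centring gave 582 and 803 for *Sin3A* dsRNA.

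Of the 8 genes tested, *Eip74EF* and *Eip71CD* were those that passed both thresholds. The remaining gene, *Hr46*, was under the filter on low values and is described apart. *Eip74EF* fell with *Sin3A* dsRNA and with paraquat, and *Eip71CD* rose with *Sin3A* dsRNA. The effects on the receptor genes *EcR* and *usp* and on *Eip75B*, *br*, *Hr39* and *ftz-f1* were each under 1.4-fold. FPKM is scaled by transcript length, so levels can be compared between loci, but the values of *Eip71CD*, *usp* and *Hr46* include the other genes of their loci. By the mean FPKM over the 8 groups the order was *Eip71CD* (73.7), *usp* (37.0), *Eip75B* (33.0), *EcR* (15.7), *Hr39* (11.2), *ftz-f1* (11.01), *br* (9.02), *Eip74EF* (2.16) and *Hr46* (0.116). The ranges over groups of *usp* and *Eip75B* overlapped, as did those of *Hr39* and *ftz-f1* and of *ftz-f1* and *br*, so these neighbours are not separated by more than their spread over groups. The ranges of *EcR* and *Hr39* also overlapped, although *EcR* was the higher in each of the 8 groups. The ranges of *Eip71CD*, *Eip74EF* and *Hr46* did not overlap those of their neighbours, nor did the range of *Eip75B* that of *EcR*.

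**Figure D1:**
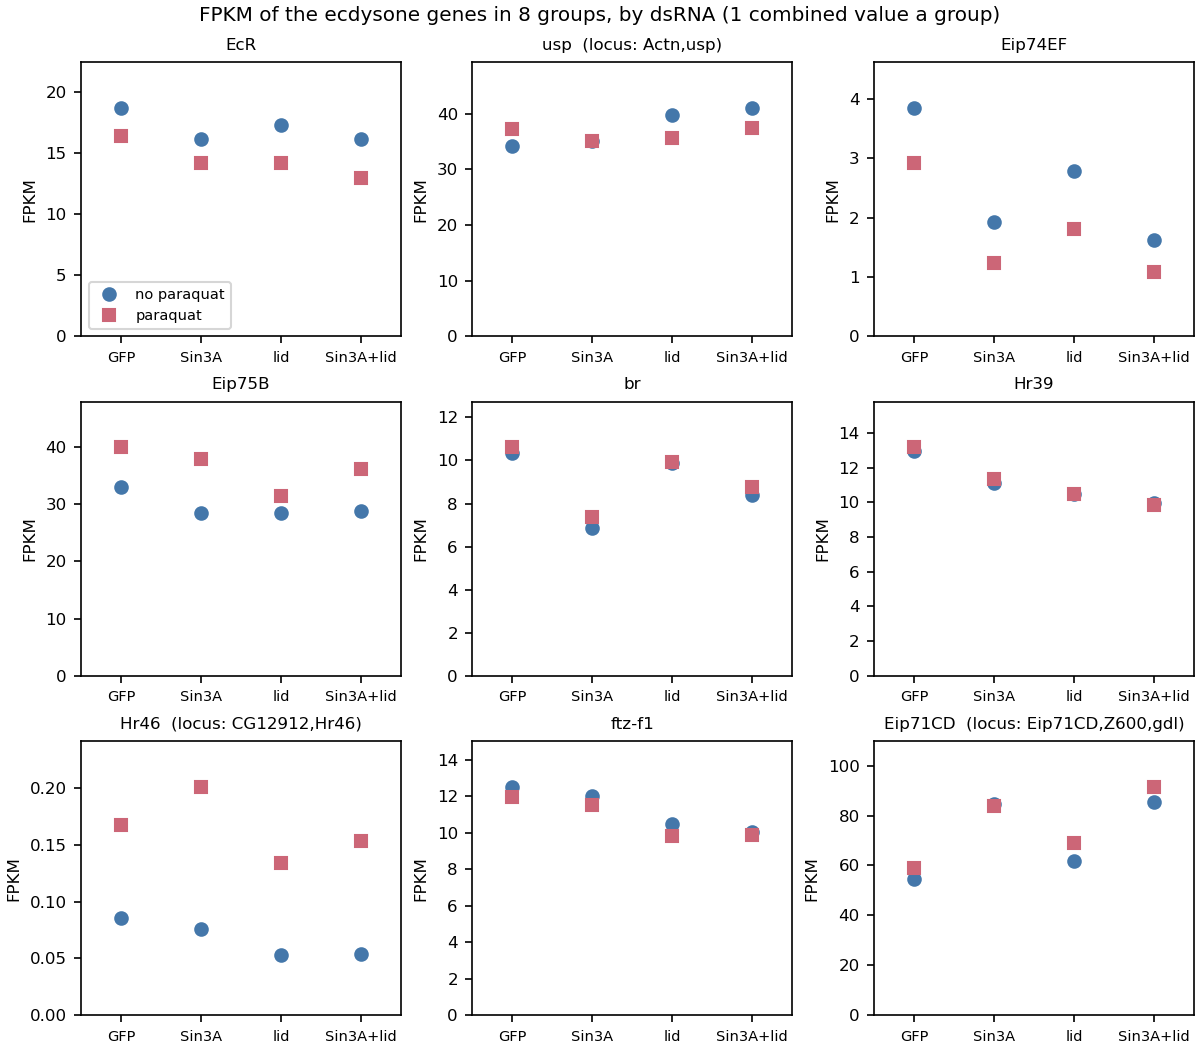
FPKM (vertical axes, each from 0) of the 9 genes in the 8 groups, with the dsRNA on the horizontal axis, circles for unstressed cells and squares for cells with paraquat; each point is the 1 combined value of 3 replicates. *Eip74EF* runs from 3.85 FPKM in GFP RNAi to 1.09 FPKM in SIN3 KD + LID KD with paraquat, while *Eip71CD* is at 83.9 to 91.5 FPKM wherever *Sin3A* dsRNA was given and at 54.7 to 68.8 FPKM elsewhere.

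*EcR* encodes the hormone-binding subunit of the receptor. Its locus lies on 2R from 1975377 to 2056592 (dm3, as are all coordinates here) and holds no other gene name. In unstressed cells its FPKM was 18.7 in GFP RNAi, 16.1 in SIN3 KD, 17.3 in LID KD and 16.1 in SIN3 KD + LID KD. With paraquat the values were 16.3, 14.1, 14.2 and 12.9 FPKM for the same dsRNAs. *EcR* was thus highest in unstressed GFP RNAi cells and lowest where all 3 factors were combined, a 1.45-fold difference in FPKM between those 2 groups. Each of the 4 matched ratios was below 1 for every factor, a matched ratio being that of the FPKM + 0.1 of 2 groups that differ in 1 factor alone. That of SIN3 KD + LID KD to SIN3 KD was almost 1 (log2 ratio -0.0017). The share of all tested loci with such a pattern was not counted. The paraquat effect was -0.24 ± 0.044 SE (adjusted p = 0.0082) and the *Sin3A* dsRNA effect -0.16 ± 0.044 SE (adjusted p = 0.0201), and both were under 1.4-fold. The first kept an adjusted p under 0.05 in all 14 alternatives and the second in 9 of them, with a range of 0.0112 to 0.0714. The *lid* dsRNA effect, -0.11 ± 0.044 SE, did not pass (adjusted p = 0.191).

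*usp* encodes the partner of EcR, the fly homolog of the vertebrate retinoid X receptors. Its locus (X, 1918788 to 1936344) also holds *Actn*, the alpha-actinin gene, and 1 FPKM value covers both. Without stress the locus was at 34.2 FPKM in GFP RNAi, 35.1 in SIN3 KD, 39.8 in LID KD and 41.0 in SIN3 KD + LID KD. In the paraquat groups it was at 37.3, 35.2, 35.7 and 37.5 FPKM in that order. The groups overlapped for every factor, and the highest value was 1.202-fold the lowest. The effects were 0.02 for *Sin3A* dsRNA, 0.12 for *lid* dsRNA and -0.04 for paraquat, each ± 0.056 SE, with adjusted p-values of 0.816, 0.258 and 0.608. The values are those of the locus, and *usp* alone was not analysed here.

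*Eip74EF*, an early gene that encodes an ETS-domain transcription factor, varied most among the tested members. Its locus lies on 3L from 17551771 to 17612425. Unstressed cells had 3.85 FPKM in GFP RNAi, 1.92 in SIN3 KD, 2.79 in LID KD and 1.63 in SIN3 KD + LID KD. Stressed cells had 2.92, 1.23, 1.81 and 1.09 FPKM, respectively. Every group with *Sin3A* dsRNA was below its matched group without it, and all 4 ratios were past 1.4-fold, from 1.61-fold to 2.27-fold lower. The values with and without *Sin3A* dsRNA overlapped only because LID KD with paraquat (1.81 FPKM) was lower than SIN3 KD (1.92 FPKM). The *Sin3A* dsRNA effect was -0.89 ± 0.127 SE (adjusted p = 0.0016), a 1.86-fold fall. Of all tested loci, 5.09% had all 4 ratios past 1.4-fold lower, and 9.43% fell with *Sin3A* dsRNA by the thresholds used. The call held in all 13 alternatives run, with effects between -0.95 and -0.63. Under the filter of 5 FPKM the gene was not tested, as its mean is lower.

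*Eip74EF* also fell with paraquat. The 4 stressed groups were each below their unstressed counterparts, 3 of the 4 past 1.4-fold, and the ratios ran from 1.31-fold to 1.52-fold lower. The effect was -0.53 ± 0.127 SE (adjusted p = 0.0196), a 1.45-fold fall, where 3.33% of all tested loci fell with paraquat. This call lies close to both thresholds. It was lost with a pseudocount of 1 FPKM (-0.37, adjusted p = 0.0222) and without LID KD (-0.56, adjusted p = 0.0545), SIN3 KD + LID KD (-0.48, adjusted p = 0.049), SIN3 KD with paraquat (-0.47, adjusted p = 0.0586) or LID KD with paraquat (-0.47, adjusted p = 0.0446). With *lid* dsRNA the 4 ratios were also all lower, 1 of them past 1.4-fold, but the effect of -0.38 ± 0.127 SE did not pass (adjusted p = 0.142). From unstressed GFP RNAi to SIN3 KD + LID KD with paraquat, the FPKM of *Eip74EF* was 3.54-fold lower. At 1.09 to 3.85 FPKM the gene is low, in the lowest 6.26% of tested loci by mean FPKM, and the read counts behind these values were not used here.

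Hemocyte marker genes moved in the same groups. Of 9 tested hemocyte markers, 5 fell with *Sin3A* dsRNA and 4 with paraquat, where 9.43% and 3.33% of all tested loci fell. The marker *crq* was higher with *Sin3A* dsRNA (0.28 ± 0.043 SE, adjusted p = 0.00229), under 1.4-fold, while *ush* (-0.04, adjusted p = 0.516), in a locus with *MED15*, and *eater* (-0.18, adjusted p = 0.0840) did not pass. The markers with the called falls included *Pxn*, which encodes peroxidasin, with effects of -1.25 ± 0.099 SE and -0.99 ± 0.099 SE (adjusted p = 0.000224 and 0.00141). The summed level of the 11 matched markers was 838 to 1082 FPKM with and 1078 to 1691 FPKM without *Sin3A* dsRNA, and *Hml*, a defining hemocyte marker, was at 0.779 FPKM or lower in every group. In bulk RNA, fewer cells of a type and less RNA per cell cannot be told apart. The part of these markers in the *Eip74EF* result was not tested.

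*Eip75B* encodes a nuclear receptor that binds heme and acts as a repressor. Its locus lies on 3L from 17944052 to 18057796. FPKM in unstressed cells was 33.0 in GFP RNAi, 28.5 in SIN3 KD, 28.4 in LID KD and 28.8 in SIN3 KD + LID KD. In cells with paraquat it was 40.0, 38.0, 31.4 and 36.2 FPKM. Each stressed group was above its unstressed counterpart, by 1.10-fold to 1.33-fold. The paraquat effect of 0.29 ± 0.070 SE passed the adjusted p (0.0204) but stayed under 1.4-fold, and its adjusted p was under 0.05 in 9 of 14 alternatives, with a range of 0.00532 to 0.0764. *Eip75B* and *Eip74EF*, both early genes, therefore differed in the sign of their paraquat effect. The effects of *Sin3A* dsRNA (-0.02 ± 0.070 SE) and *lid* dsRNA (-0.16 ± 0.070 SE) did not pass, with adjusted p-values of 0.870 and 0.241.

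*br*, the Broad-Complex gene, encodes zinc finger transcription factors that specify the pupal stage. It lies on X from 1417586 to 1558902. The unstressed values were 10.4 FPKM in GFP RNAi, 6.84 in SIN3 KD, 9.88 in LID KD and 8.40 in SIN3 KD + LID KD. The values with paraquat were 10.6, 7.39, 9.91 and 8.75 FPKM. The 4 groups with *Sin3A* dsRNA, at 6.84 to 8.75 FPKM, did not overlap the 4 without it, at 9.88 to 10.6 FPKM, as was so in this direction for 13.6% of tested loci. The *Sin3A* dsRNA effect was -0.38 ± 0.081 SE (adjusted p = 0.0086), under 1.4-fold, and its adjusted p stayed under 0.05 in all 14 alternatives. By matched ratio *br* was 1.51-fold lower in unstressed and 1.43-fold lower in stressed cells when *Sin3A* dsRNA was given alone. Where *lid* dsRNA was present too, it was 1.17-fold and 1.13-fold lower. The product term that tests this difference was 0.35 ± 0.092 SE, with an unadjusted p of 0.0111 and an adjusted p of 0.913, so the difference did not pass over all loci. The *lid* dsRNA effect (0.09 ± 0.081 SE, adjusted p = 0.550) and the paraquat effect (0.05 ± 0.081 SE, adjusted p = 0.641) of *br* did not pass either.

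The nuclear receptor genes *Hr39* and *ftz-f1* were the tested members whose *lid* dsRNA effect passed the adjusted p, with lower values where it was given. All 4 *lid* dsRNA ratios were lower also for *EcR*, *Eip74EF* and *Hr46*, and the *Eip74EF* effect (-0.38) was larger but did not pass. The products of *Hr39* and *ftz-f1* are related orphan receptors, and *ftz-f1* gives tissues the competence to respond to the prepupal ecdysone pulse. *Hr39* lies on 2L from 21237249 to 21259675 and *ftz-f1* on 3L from 18743706 to 18794409. *Hr39* was at 13.0 FPKM in GFP RNAi, 11.1 in SIN3 KD, 10.5 in LID KD and 9.93 in SIN3 KD + LID KD, and with paraquat at 13.2, 11.4, 10.5 and 9.85 FPKM. Its 4 groups with *lid* dsRNA, at 9.85 to 10.5 FPKM, lay below all 4 groups without it, at 11.1 to 13.2 FPKM, as was so for 0.891% of tested loci. The *lid* dsRNA effect was -0.25 ± 0.046 SE (adjusted p = 0.0391) and the *Sin3A* dsRNA effect -0.15 ± 0.046 SE (adjusted p = 0.0333), both under 1.4-fold, and the latter had an adjusted p of 0.0184 to 0.121 over its 14 alternatives. The paraquat effect was 0.01 ± 0.046 SE (adjusted p = 0.888).

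*ftz-f1* was at 12.5 FPKM in GFP RNAi, 12.0 in SIN3 KD, 10.4 in LID KD and 10.0 in SIN3 KD + LID KD. With paraquat it was at 12.0, 11.5, 9.83 and 9.85 FPKM. Again the groups with *lid* dsRNA (9.83 to 10.4 FPKM) did not overlap those without (11.5 to 12.5 FPKM), and the 4 ratios were close to each other, from 1.17-fold to 1.22-fold lower. The effect was -0.25 ± 0.039 SE (adjusted p = 0.0265), under 1.4-fold. The *Sin3A* dsRNA effect of -0.04 ± 0.039 SE and the paraquat effect of -0.06 ± 0.039 SE did not pass (adjusted p = 0.392 and 0.274). Both *lid* dsRNA results depend on the whole set of groups. The adjusted p was over 0.05 whenever any 1 group was left out, at 0.0698 to 0.180 for *Hr39* and 0.0656 to 0.139 for *ftz-f1*, while the effect stayed between -0.27 and -0.23 for *Hr39* and between -0.27 and -0.24 for *ftz-f1*.

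*Hr46*, also called *Hr3*, encodes a nuclear receptor that activates *ftz-f1* in the prepupa. Its locus (2R, 6091616 to 6124853) also holds *CG12912*. The locus was at 0.0860 FPKM in GFP RNAi, 0.0764 in SIN3 KD, 0.0531 in LID KD and 0.0541 in SIN3 KD + LID KD. With paraquat it was at 0.168, 0.201, 0.134 and 0.153 FPKM. Every stressed group was above every unstressed group, as in 6.56% of the tested loci, of which *Hr46* is not one. All 8 values were close to the 0.1 FPKM added before taking logs, which shrinks the fitted effects, and far under the filter of 1 FPKM. In the fit without a filter, over 14542 loci, the paraquat effect was 0.66 ± 0.046 SE (adjusted p = 0.00538), past both thresholds, the *lid* dsRNA effect -0.23 (adjusted p = 0.124) and the *Sin3A* dsRNA effect 0.05 (adjusted p = 0.528). Read counts were not used here, so the counting error at so low a level is unknown.

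*Eip71CD* is not a transcription factor gene. It was found through its induction by ecdysone in cultured cells and encodes methionine sulfoxide reductase A, an enzyme that repairs oxidized methionine, for which the Ensembl annotation names it *MsrA*. The locus, on 3L from 15502160 to 15506302, also holds *Z600* and *gdl*, and 1 value covers the 3 genes. In unstressed cells it was at 54.7 FPKM in GFP RNAi, 84.4 in SIN3 KD, 61.9 in LID KD and 85.6 in SIN3 KD + LID KD. In stressed cells it was at 59.0, 83.9, 68.8 and 91.5 FPKM. All 4 groups with *Sin3A* dsRNA were above all 4 groups without it, as in 16.1% of tested loci, and the ratios ran from 1.33-fold to 1.54-fold higher. The *Sin3A* dsRNA effect was 0.50 ± 0.045 SE (adjusted p = 0.000304), a 1.42-fold rise, where 8.35% of tested loci rose. It slipped under 1.4-fold when the values were centred on the median (0.47), without GFP RNAi (0.48) and without SIN3 KD (0.46), while its adjusted p was 0.00326 or lower in all 14 alternatives. Neither the *lid* dsRNA effect (0.14 ± 0.045 SE, adjusted p = 0.136) nor the paraquat effect (0.09 ± 0.045 SE, adjusted p = 0.170) passed. *elav*, a marker of neurons, rose with *Sin3A* dsRNA by the same size (0.50 ± 0.068 SE, adjusted p = 0.00133), from 3.22 to 3.63 FPKM without to 4.83 to 5.03 FPKM with it. The other matched neuron and glia markers, *repo*, *Syt1* and *brp*, were at 0.164 FPKM or lower in every group and were not tested. The muscle marker *Mlc2* also had an effect of 0.50 (± 0.148 SE, adjusted p = 0.0287). The part of these genes in the *Eip71CD* result was not tested.

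**Figure D2:**
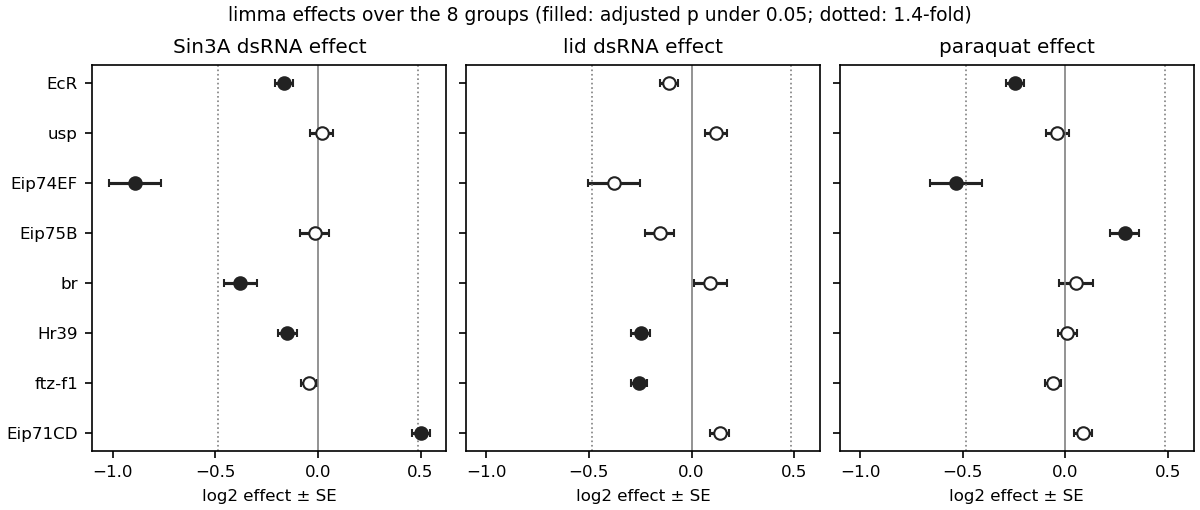
limma effects (horizontal axes, log2 scale) of *Sin3A* dsRNA, *lid* dsRNA and paraquat on the 8 tested genes (vertical axis), with bars for 1 SE, filled points for an adjusted p under 0.05 and dotted lines at 1.4-fold. *Eip74EF* lies past the dotted line for *Sin3A* dsRNA (-0.89) and paraquat (-0.53), *Eip71CD* for *Sin3A* dsRNA (0.50), and no gene for *lid* dsRNA.

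Counted over the 8 tested genes, 1 rose and 1 fell with *Sin3A* dsRNA, where 8.35% of all tested loci rose and 9.43% fell. By the adjusted p alone, 1 was higher (*Eip71CD*) and 4 were lower (*Eip74EF*, *br*, *EcR* and *Hr39*), where 26.1% of all tested loci were higher and 26.4% lower. The median effect was -0.10 over the 8 genes and -0.01 over all tested loci. For *lid* dsRNA no gene was called by limma with the fold threshold, where 0.439% of all loci rose and 0.49% fell. By the adjusted p alone 2 genes were lower (*Hr39* and *ftz-f1*), where 2.48% of loci were higher and 2.07% lower, and 5 of the 8 had an unadjusted p under 0.05, as had 23.7% of all tested loci. The median *lid* dsRNA effect was -0.13 over the 8 genes and 0.01 over all. With paraquat 1 gene fell and none rose, where 3.33% of all tested loci fell and 3.94% rose. By the adjusted p alone 1 was higher (*Eip75B*) and 2 were lower (*EcR* and *Eip74EF*), where 15.2% of all loci were higher and 21.6% lower, and both medians were -0.01.

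Of the 32 matched ratios of the tested genes for each factor, 8 were past 1.4-fold for *Sin3A* dsRNA, 1 for *lid* dsRNA and 3 for paraquat. The shares over all tested loci were 21%, 6.78% and 12.8%. The 4 groups with *lid* dsRNA lay above the 4 without it for none of the 8 genes and for 1.6% of tested loci. For paraquat the groups overlapped for all 8 genes, where 6.56% of tested loci lay wholly higher and 8.93% wholly lower with it. The 8 ratios for *Sin3A* dsRNA came from *Eip74EF* (4), *br* (2) and *Eip71CD* (2), and the others from *Eip74EF* alone. Differences of an effect between conditions were tested by product terms. None passed the adjusted p for the 8 genes with limma, while 3 of the 7748 loci (0.0387%) passed for *lid* dsRNA and paraquat, 5 (0.0645%) for *Sin3A* and *lid* dsRNA, and 0 (0%) for *Sin3A* dsRNA and paraquat. At an unadjusted p under 0.05 stood *usp* alone of the 8 for *lid* dsRNA and paraquat, as did 18.5% of all tested loci. For *Sin3A* and *lid* dsRNA *br* alone did, as did 3.96% of all tested loci.

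**Figure D3:**
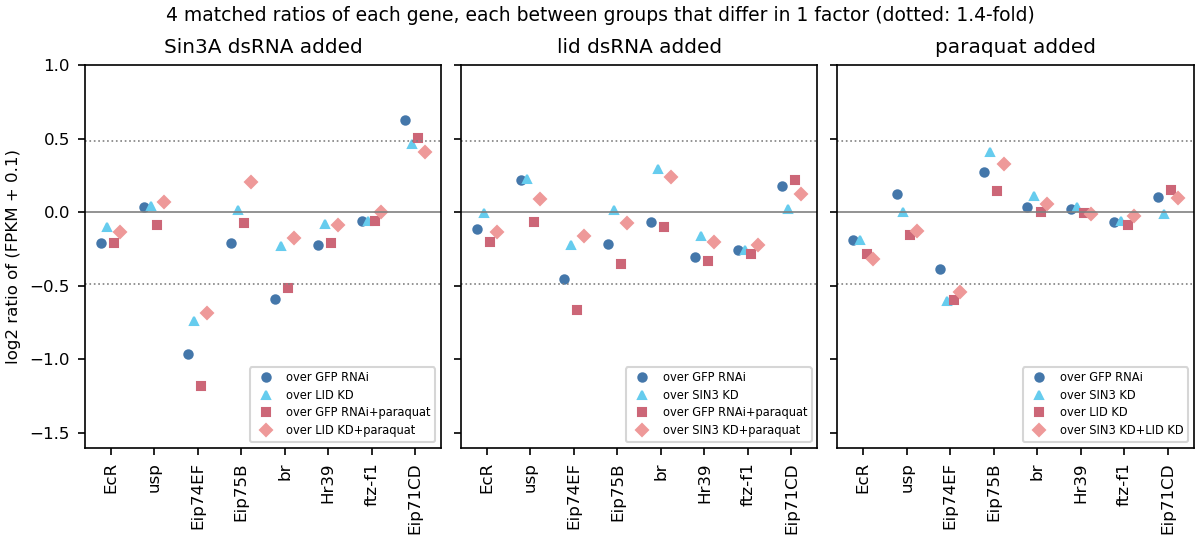
The 4 matched log2 ratios of (FPKM + 0.1) for each of the 8 tested genes (vertical axes; horizontal axes, genes), with 1 panel a factor, 1 symbol for each pair of groups and dotted lines at 1.4-fold. For *Sin3A* dsRNA all 4 points of *Eip74EF* lie under the dotted line and all 4 of *Eip71CD* above 0, and the points of *br* separate by whether *lid* dsRNA was present.

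The 8 values of some members ran side by side. Pearson correlations of the log2 values over the 8 groups were taken for every pair of tested members. The strongest were 0.91 between *EcR* and *Eip74EF*, 0.88 between *Hr39* and *ftz-f1*, and -0.93 between *Eip71CD* and *Eip74EF*. All other pairs were weaker. *usp* and *EcR*, whose products form the receptor, had a correlation of 0.01. Among all other tested loci, those most like *Eip74EF* were *Parp*, which encodes poly(ADP-ribose) polymerase, with a correlation of 0.995 and 3.35 to 9.50 FPKM, *CG17471* (0.994) and *CG31125* (0.992). Most like *br* were the locus of *CheB42c* and *mim* (0.983), *Fas3*, the cell adhesion gene Fasciclin 3 (0.979, with 12.2 to 24.9 FPKM), and *CG15740* (0.977). Most like *Eip71CD* were *CG16965* (0.996), *CG16787* (0.994) and *Rab19*, a Rab GTPase gene (0.992). These correlations describe 8 values that come from the same 24 libraries, and the loci named as most like a gene are the first 3 of 7747 searched for it.

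Most of the 9 genes are known for alternative promoters and isoforms. An Ensembl annotation of a later genome build, matched by gene name only, lists between 2 transcripts (*usp*) and 16 (*br*), with 5 for *Eip74EF*, 6 for *EcR* and 7 for *Eip75B*, against a median of 2 over 13986 protein-coding genes. The deposited FPKM is 1 value a locus, so a shift between isoforms was not analysed here.

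Genes around the receptor were measured in the same fit. Of 19 tested coregulators of the receptor, 1 rose with *Sin3A* dsRNA and 1 fell with paraquat, where 8.35% and 3.33% of all tested loci did. By the adjusted p alone, 3 were higher and 8 lower with *Sin3A* dsRNA, where 26.1% and 26.4% of all tested loci were. With paraquat 2 were higher and 9 lower, where 15.2% and 21.6% of all were. *Smr*, the gene of the corepressor SMRTER, was at 67.4 to 81.4 FPKM with *Sin3A* dsRNA and at 84.3 to 125.9 FPKM without it. Its effect of -0.48 ± 0.066 SE (adjusted p = 0.00139) was 1.399-fold and just under the threshold. *DOR*, a coactivator of EcR, rose with *Sin3A* dsRNA (0.84 ± 0.057 SE, adjusted p = 0.000159), from 4.62 to 5.80 FPKM without to 8.01 to 10.3 FPKM with it. *Hsp83*, the chaperone of the receptor, fell with paraquat (-0.55 ± 0.134 SE, adjusted p = 0.0212), from 1353 to 2143 FPKM without to 1064 to 1283 FPKM with it, and *Hsc70-4* had the highest mean of the list.

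Among 15 other nuclear receptor genes, 6 passed the filter, and the highest was *Hr78*, in a locus with *Glg1*, at 49.6 to 72.0 FPKM. With *Sin3A* dsRNA 1 of the 6 rose and 1 fell, where 8.35% and 9.43% of all tested loci did. With paraquat 1 rose, where 3.94% of all did. *Eip78C*, a further ecdysone-induced receptor gene, fell with *Sin3A* dsRNA (-0.73 ± 0.138 SE, adjusted p = 0.00521). *Hr51* rose with *Sin3A* dsRNA (0.73 ± 0.151 SE, adjusted p = 0.00733) and with paraquat (0.82 ± 0.151 SE, adjusted p = 0.00865). Both genes were low, *Eip78C* at 1.45 to 3.51 FPKM and *Hr51* at 0.875 to 3.14 FPKM, close to the filter of 1 FPKM. Of 15 other ecdysone-induced genes tested, 3 rose with *Sin3A* dsRNA, 2 rose with paraquat and none fell with either. By the adjusted p alone 7 were higher and 1 lower with *Sin3A* dsRNA, where 26.1% and 26.4% of all tested loci were. With paraquat 6 were higher and 0 lower, where 15.2% and 21.6% of all were. *ImpL3*, which encodes lactate dehydrogenase, rose from 14.7 FPKM in GFP RNAi to 42.9 FPKM with paraquat and 69.3 FPKM with all 3 factors, with effects of 0.60 ± 0.084 SE for *Sin3A* dsRNA and 1.28 ± 0.084 SE for paraquat (adjusted p = 0.00156 and 0.000474). *vri*, a bZIP transcription factor gene, rose with both (0.60 and 0.56, each ± 0.061 SE, adjusted p = 0.000453 and 0.00181). *ImpE3*, also low at 1.28 to 3.42 FPKM, rose with *Sin3A* dsRNA (0.58 ± 0.160 SE, adjusted p = 0.0219). *ImpL2*, of an insulin-binding protein, had the highest level of these genes, at 751 to 1134 FPKM. Over the 52 tested genes of all 5 pathway lists, 7 (13.5%) rose and 2 (3.85%) fell with *Sin3A* dsRNA, where 8.35% and 9.43% of all tested loci did. With paraquat 4 (7.69%) rose and 1 (1.92%) fell, where 3.94% and 3.33% of all did. For *lid* dsRNA no gene of the lists passed the adjusted p with limma, where 2.48% of all tested loci were higher and 2.07% lower.

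**Figure D4:**
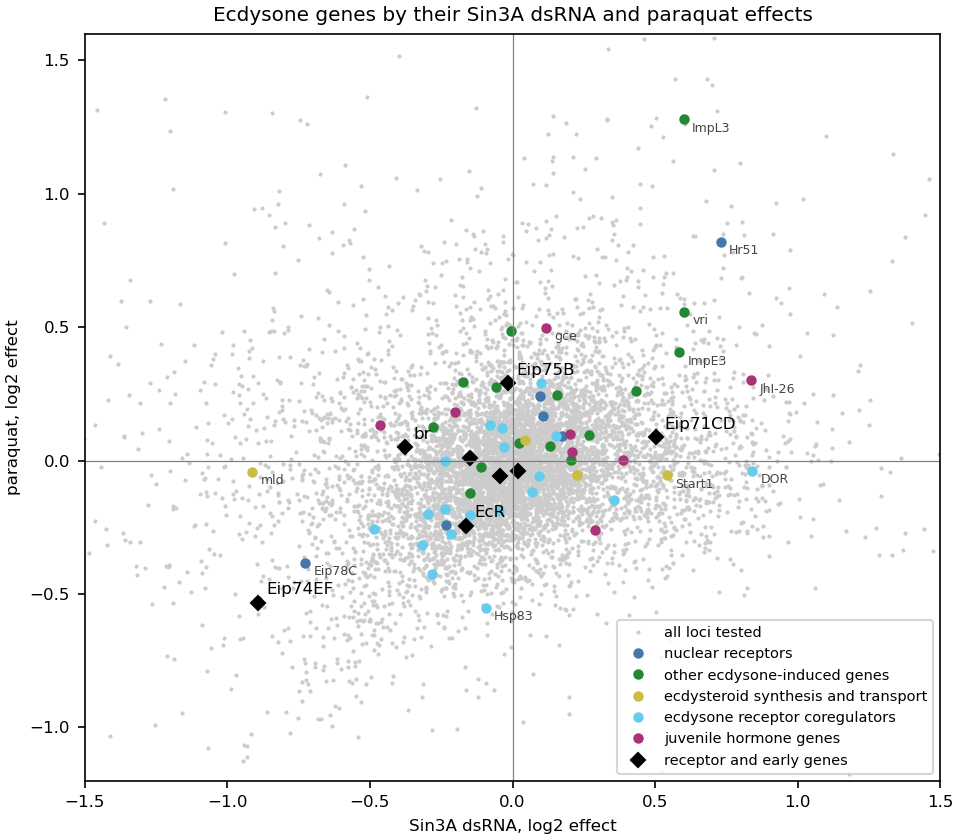
Sin3A dsRNA effect (horizontal axis) against paraquat effect (vertical axis), both on the log2 scale, for all tested loci in grey, the 5 pathway lists in colours and the 8 tested genes of the receptor and early response as black diamonds; 184 of the 7748 loci lie outside the axes. *Eip74EF* (-0.89, -0.53) is the diamond farthest to the lower left and *Eip71CD* (0.50, 0.09) the one farthest right, and *ImpL3* (0.60, 1.28) is the highest of the list genes; the unlabelled diamonds near 0 are *usp*, *Hr39* and *ftz-f1*.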

How the data were processed

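S2 cell RNA from 24 samples was sequenced as paired reads from poly(A) libraries. The authors used TopHat and Bowtie (dm3), then Cufflinks and Cuffdiff; tool versions are not given in the sources used here. The deposited FPKM values, made by the authors with Cuffdiff, are 1 value a group and locus, with the 3 replicates combined, in 7 tables that each set a group beside unstressed GFP RNAi. The control column was identical in all 7. The tables' fold changes, test statistics, p-values and q-values are the authors' own comparisons and were not used. The study gives an approximate read depth, but not that of single samples, and 448 of 14542 loci hold more than 1 gene. Libraries did not mark strand.

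Tables were joined on the locus ID. With 0.1 FPKM added, log2 values were fitted with limma 3.58.1 (R 4.3.3, eBayes with trend) over 7748 loci with a mean of at least 1 FPKM, by the main effects of 3 factors. Product terms were added 1 at a time, with 3 residual degrees of freedom. Thresholds of adjusted p 0.05 and 1.4-fold follow the study. On simulated *Sin3A* dsRNA effects over 7748 loci, 148 of 200 loci changed 1.5-fold and 186 of 200 changed 2-fold were recovered. False calls numbered 2 and 5. The simulated noise was independent between groups, with residual spreads shuffled among loci, and neither *lid* dsRNA nor paraquat had an effect. The data differ in these settings, so the recovery and false calls there are not known from this simulation. Alternatives were a pseudocount of 1, no filter, a filter of 5 FPKM, median centring, no intensity trend, all pairwise products, each group left out, 2-fold or no pseudocount for ratios and, added after seeing the data, the adjusted p alone. Genes named are the 9 members, the dsRNA targets, list genes called (at most 4 a list and effect), the highest of each list, and the 3 loci most like each of the 3 tested members of widest range. *Smr*, *Hml*, *crq*, *ush*, *Met*, *sro* and *spo* were named after their values were seen. Members, lists and tests were chosen with earlier results of these data known. Python 3.11.15 with pandas 2.3.3, NumPy 2.4.6 and Matplotlib 3.10.9 was used.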

Additional observations from a re-analysis of the deposited data

Results flagged for a closer look

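For 4 effects of the genes described, the sign differed between conditions in every matched pair, and in none did the product term pass after adjustment over all loci. The share of all tested loci with such a split was not counted, so these 4 cannot be set against it. Some of the values, among them all those of *Hr39*, were close to 0. The paraquat effect of *usp* was 0.13 and 0.00 without *lid* dsRNA and -0.16 and -0.13 with it, a difference of -0.21 (limma adjusted p = 0.239). The paraquat effect of *Hr39* was 0.020 and 0.033 without and -0.0041 and -0.011 with *lid* dsRNA, a difference of -0.034 (adjusted p = 0.864). The *Sin3A* dsRNA effect of *Eip75B* was -0.21 and -0.07 without and 0.02 and 0.21 with *lid* dsRNA, a difference of 0.25 (adjusted p = 0.913). The *lid* dsRNA effect of *br* was -0.07 and -0.10 without and 0.29 and 0.24 with *Sin3A* dsRNA, a difference of 0.35 (adjusted p = 0.913). Each value rests on 1 combined FPKM a group.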

How the results depend on the processing

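Of 333 alternative values for the 24 effects of the 8 tested genes, 311 kept their direction and their call (or lack of one) by both thresholds together, 8 lost the call (5 of *Eip74EF* with paraquat and 3 of *Eip71CD* with *Sin3A* dsRNA, given above) and 14 turned sign, all of effects that had not passed. By the adjusted p alone, 35 values lost and 5 gained an adjusted p under 0.05. Centred on the median, the *usp* effects became -0.0107 for *Sin3A* dsRNA and 0.00437 for paraquat. With 1 group left out, the range was -0.0220 to 0.0691 for *usp* and *Sin3A* dsRNA, -0.0905 to 0.000566 for *usp* and paraquat, -0.0841 to 0.0468 for *Eip75B* and *Sin3A* dsRNA, -0.00675 to 0.107 for *br* and paraquat, and -0.0131 to 0.0314 for *Hr39* and paraquat. The count of loci called for *lid* dsRNA (72) was 19 without a filter, 153 with all pairwise products and 3 to 32 with 1 group left out; leaving out a group gave 1237 to 1385 loci for *Sin3A* dsRNA and 439 to 626 for paraquat. By the adjusted p alone, 4062, 352 and 2851 loci passed for *Sin3A* dsRNA, *lid* dsRNA and paraquat. With the filter of 5 FPKM the product terms passed for 1 locus (*Sin3A* dsRNA and paraquat), 1 (*lid* dsRNA and paraquat) and 3 (*Sin3A* and *lid* dsRNA). Matched ratios past 2-fold numbered 1, 0 and 0 for *Sin3A* dsRNA, *lid* dsRNA and paraquat, and with a pseudocount of 1 FPKM those past 1.4-fold were 0 for *lid* dsRNA and 0 for paraquat. The cause of these moves was not tested. No paired analysis was possible because the 3 replicates of each group were combined into 1 value.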

Other observations

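Transcripts of the enzymes that make ecdysone were low in S2 cells. Of 14 matched genes for ecdysteroid synthesis and transport, 10 were under a mean of 1 FPKM, and among them *sro* reached the highest value in any group, 1.02 FPKM, and *spo* reached 0.718 FPKM. *Npc1a*, a sterol transport gene, was at 87.5 to 110.1 FPKM. *Start1*, a gene for a sterol-binding START domain protein, rose with *Sin3A* dsRNA (0.54 ± 0.085 SE, limma adjusted p = 0.00239), and *mld*, which encodes a zinc finger regulator of ecdysone synthesis, fell (-0.91 ± 0.0996 SE, adjusted p = 0.000585). None of the 4 tested genes of this list was called with paraquat, where 3.94% of all tested loci rose and 3.33% fell.

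Of 8 tested juvenile hormone genes, 1 rose with *Sin3A* dsRNA and 1 with paraquat, where 8.35% and 3.94% of all tested loci rose. *JhI-26*, a juvenile hormone-inducible gene, rose with *Sin3A* dsRNA (0.84 ± 0.076 SE, adjusted p = 0.000316), and *gce*, which encodes a juvenile hormone receptor, rose with paraquat (0.50 ± 0.047 SE, adjusted p = 0.00112) from 32.9 to 38.4 FPKM without to 43.4 to 56.7 FPKM with it. *Met*, the paralog of *gce*, stayed between 6.64 and 9.56 FPKM. *JhI-21* had the highest level of the list, with 422 to 609 FPKM.

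None of 6 fat body markers and none of 5 germline and follicle cell markers reached a mean of 1 FPKM. *elav* was the only neuron and glia marker of 4 matched that did. Of 4 muscle markers *Mlc2* alone did, at 0.931 to 2.15 FPKM, and it rose with *Sin3A* dsRNA (0.50 ± 0.148 SE, adjusted p = 0.0287).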
